A study of Mus musculus with 18 samples.

Results

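IL-20 subfamily cytokines and their receptor chains were examined in sorted mouse ear skin cells with and without epidermal loss of c-Jun and JunB. The family comprised 7 of the 23951 genes with deposited values, namely the cytokine genes Il19, Il20 and Il24 and the receptor chain genes Il20ra, Il20rb, Il22ra1 and Il10rb. Members were taken by gene symbol, but the family was chosen by its measured FPKM in these same libraries, so its levels and differences are given below as a description, with no p-value. Each of 6 groups held 1 library from each of 3 mice, 18 libraries in all. DKO* mice carried the K5-Cre-ERT transgene, a tamoxifen-inducible Cre driven by the keratin 5 promoter of basal epithelial cells, with floxed JunB and c-Jun alleles and the mT/mG reporter, in which recombination switches membrane Tomato to membrane GFP. Control mice (Co) also carried K5-Cre-ERT and mT/mG, kept at least 1 intact copy of c-Jun and of JunB (wild-type or heterozygous), and received tamoxifen too. All mice were 8 weeks old, of mixed background and of either sex, and were given 4 injections of 2 mg tamoxifen before ear skin was collected at day 7. CD45-negative, CD49f-high cells were sorted by CD34 into bulge hair follicle stem cells (HF-SC, CD34+) and basal keratinocytes (b-KC, CD34-). DKO* cells were split further into a mutant GFP fraction and a non-mutant Tom fraction of the same mice. Co mice 810, 825 and 828 gave both cell types, and DKO* mice 814, 815 and 817 gave all 4 DKO* populations.

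IL-19, IL-20 and IL-24 belong to the IL-10 cytokine family and act mainly on epithelial cells. All of them bind the type I receptor, a pair of IL-20RA and IL-20RB chains, and IL-20 and IL-24 also bind the type II receptor of IL-22RA1 and IL-20RB. IL-22RA1 pairs with IL-10RB to form the receptor for IL-22, and these receptors signal through JAK kinases to STAT3. In skin the subfamily is known for its link to psoriasis, in which keratinocytes proliferate, differentiate abnormally and release antimicrobial peptides and chemokines.

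c-Jun and JunB are subunits of AP-1, whose motif was searched in the loose form TGANTCA with any centre base, and STAT3 binds TTCNNNGAA. The 250 bases before the transcription start of the members were searched for both motifs. RefSeq promoters (GRCm38.p6) matched 5 of the 7 members, and Il19, Il20, Il20ra and Il22ra1 are printed here 5′ to 3′ because they hold the motif matches or, for Il20, because that cytokine was higher in the mutant than in the non-mutant fraction of every mouse. Capitals mark a match. The windows are chr1:130940116-130940365 on the minus strand for Il19, chr1:130911297-130911546 on the minus strand for Il20, chr10:19712337-19712586 on the plus strand for Il20ra and chr4:135727909-135728158 on the plus strand for Il22ra1.
Il19: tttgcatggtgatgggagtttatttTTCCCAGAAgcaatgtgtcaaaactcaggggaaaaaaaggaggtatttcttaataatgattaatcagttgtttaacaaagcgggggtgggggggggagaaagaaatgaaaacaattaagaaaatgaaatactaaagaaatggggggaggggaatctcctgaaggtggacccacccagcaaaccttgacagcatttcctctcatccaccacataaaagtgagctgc
Il20: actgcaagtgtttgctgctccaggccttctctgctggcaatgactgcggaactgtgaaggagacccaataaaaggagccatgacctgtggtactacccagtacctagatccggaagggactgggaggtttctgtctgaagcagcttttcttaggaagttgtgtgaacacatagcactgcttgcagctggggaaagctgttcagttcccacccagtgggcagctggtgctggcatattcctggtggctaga
Il20ra: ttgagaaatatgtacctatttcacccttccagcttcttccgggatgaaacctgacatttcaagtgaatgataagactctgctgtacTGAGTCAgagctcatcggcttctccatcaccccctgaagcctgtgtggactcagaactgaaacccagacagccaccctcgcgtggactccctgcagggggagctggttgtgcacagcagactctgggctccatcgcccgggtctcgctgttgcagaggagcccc
Il22ra1: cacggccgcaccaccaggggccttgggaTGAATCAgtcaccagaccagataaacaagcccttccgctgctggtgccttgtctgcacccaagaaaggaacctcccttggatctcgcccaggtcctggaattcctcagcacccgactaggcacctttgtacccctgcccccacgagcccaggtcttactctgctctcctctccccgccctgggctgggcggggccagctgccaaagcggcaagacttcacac
Il20ra held TGAGTCA 164 to 158 bases before the start, and Il22ra1 held TGAATCA 222 to 216 bases before it. Il19 held TTCCCAGAA 225 to 217 bases before its start and no TGANTCA. In these windows neither motif matched in Il20 or in Il20rb, and both motifs read the same on either strand and did not overlap. Among all 32851 RefSeq promoter windows of this length, 6.75% held TGANTCA and 7.02% held TTCNNNGAA.

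Read depth was implied by the steps between low FPKM values (fragments per kilobase of transcript and mapped-read total) and ran from 16440000 to 26280000 reads per library, so 3 reads on a transcript of 1 kb were worth 0.114 to 0.182 FPKM. Jun was at 835 to 1086 FPKM in Co, 29.6 to 88.4 in GFP and 163 to 614 in Tom libraries, and Junb was at 436 to 772, 37.2 to 77.5 and 208 to 402 FPKM. All 7 keratinocyte markers were present in each group, but Krt14 was listed at 0 in some b-KC libraries of DKO* mice and Krt15 in 1 HF-SC Co library, which shows that an exact 0 can be a failed estimate. The summed FPKM of 12 leukocyte markers was 5.51 to 8.08 in Co, 10.3 to 36.9 in GFP and 15 to 26.9 in Tom libraries of HF-SC, and 2.01 to 2.7, 7.07 to 7.6 and 5.36 to 7.36 in those of b-KC. Itgax was at 0 in at least 1 library of every group. Of the 6 markers that passed the filter, limma called 1 (GFP) and 3 (Tom) higher than Co in HF-SC (adjusted p-value under 0.01). In b-KC it called 2 (GFP) and 1 (Tom) higher, and it called 0 lower in any of these fractions. Of all genes tested, 13.0%, 15.7%, 12.5% and 15.4% were called higher in the same order. Itgam, Tyrobp, Fcer1g and Cd52 stayed below 1 FPKM in most or all Co libraries, so these counts are a description. Summed endothelial markers were 446 to 1480 FPKM in HF-SC Tom against 53.5 to 85.9 in HF-SC Co and 1.84 to 30.8 in HF-SC GFP. Of 7 bulge markers, limma called 4 lower than Co (adjusted p-value under 0.01) in each HF-SC fraction of DKO* mice, beside 12.3% (GFP) and 13.9% (Tom) of all genes, and 5 lower in b-KC Tom, beside 15.3%. Cd34, the sorting marker, was at 640 to 889 FPKM in HF-SC Co, 161 to 228 in HF-SC GFP and 260 to 319 in HF-SC Tom, and at most at 2.53 FPKM in b-KC. Fewer cells of a type and less RNA per cell cannot be told apart in such bulk libraries.

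Il19 was the most abundant cytokine of the subfamily in every DKO* library and was close to absent in Co. Il19 (NCBIM37, chromosome 1, 132829235 to 132836650, minus strand) was at 0.286, 0 and 0.321 FPKM in HF-SC Co of mice 810, 825 and 828 and at 0.126, 0 and 0.766 FPKM in b-KC Co. In mice 814, 815 and 817 the GFP fraction reached 216, 158 and 257 FPKM in HF-SC and 321, 253 and 133 FPKM in b-KC, and the Tom fraction 199, 104 and 228 FPKM in HF-SC and 238, 218 and 240 FPKM in b-KC. The lowest DKO* library thus stood above 100 FPKM and the highest Co library below 1 FPKM, while the 4 DKO* populations overlapped with each other. On the log2(FPKM + 1) scale the difference from Co (SE, n = 3 mice a group) was 7.44 ± 0.33 (GFP) and 7.14 ± 0.33 (Tom) in HF-SC, and 7.46 ± 0.33 (GFP) and 7.53 ± 0.33 (Tom) in b-KC. These sizes depend on the pseudocount, since 0.1 in place of 1 gave 9.67, 9.37, 9.68 and 9.75. The leukocyte marker sum also stood higher in DKO* than in Co libraries of the same cell type. Its part in the rise of Il19 was not tested.

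Il20 was detected mainly in the mutant fraction. Il20 (chromosome 1, 132803769 to 132807873, minus strand) was at 1.69, 4.77 and 1.23 FPKM in the mutant HF-SC fraction, again for mice 814, 815 and 817, and at 1.53, 1.39 and 0.342 FPKM in b-KC GFP. It was listed at 0 in all 3 HF-SC Co libraries, and at 0.157, 0 and 0 FPKM in b-KC Co. The Tom fractions held 0.147, 0.277 and 0.141 FPKM in HF-SC and 0.229, 0.185 and 0.184 FPKM in b-KC, levels near the worth of 3 reads on 1 kb. Every GFP library therefore stood above every Tom and every Co library of its cell type. The difference from Co on the log2(FPKM + 1) scale was 1.7 ± 0.28 (GFP) and 0.25 ± 0.28 (Tom) in HF-SC, and 0.94 ± 0.28 (GFP) and 0.19 ± 0.28 (Tom) in b-KC. With a pseudocount of 0.1 these Il20 differences were 4.5 (GFP) and 1.5 (Tom) in HF-SC, and 2.9 (GFP) and 1.12 (Tom) in b-KC. Without mouse 815, which had the highest Il20, the HF-SC GFP difference with a pseudocount of 1 was 1.29.

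Il24 was higher in all DKO* populations than in Co and, in b-KC, higher in Tom than in GFP. Il24 (chromosome 1, 132778651 to 132784031, minus strand) was at 0.262, 0 and 0.0368 FPKM in HF-SC Co and at 0.193, 0.158 and 0.0439 FPKM in b-KC Co. It was at 5.34, 6.96 and 13 FPKM in HF-SC GFP and at 5.63, 3.61 and 25.9 FPKM in HF-SC Tom, so the fractions overlapped there. In b-KC it was at 1.18, 1.3 and 1.1 FPKM in GFP and at 2.37, 4.72 and 12.4 FPKM in Tom, with no overlap. Mouse 817 had the highest Il24 in 3 of the 4 populations and the lowest in b-KC GFP. The difference from Co on the log2(FPKM + 1) scale was 3.03 ± 0.53 (GFP) and 3.1 ± 0.53 (Tom) in HF-SC, and 0.95 ± 0.53 (GFP) and 2.49 ± 0.53 (Tom) in b-KC. With a pseudocount of 0.1 these Il24 differences were 5.55 (GFP) and 5.59 (Tom) in HF-SC, and 2.54 (GFP) and 4.58 (Tom) in b-KC. Without mouse 817 the HF-SC Tom difference with a pseudocount of 1 was 2.34.

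**Figure D1:**
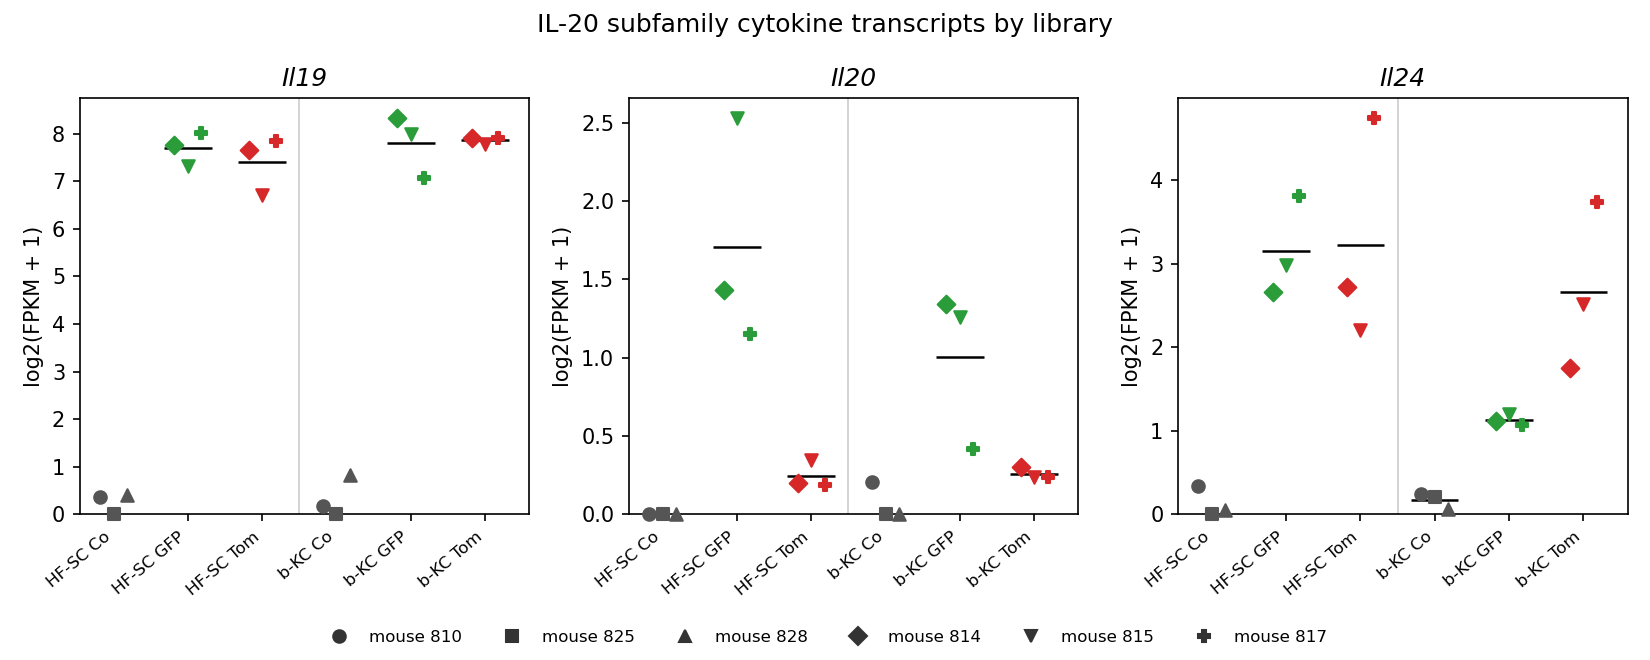
Cytokine transcripts by library as log2(FPKM + 1), with 1 point per library, symbols for mice and lines for group means of groups without a value of 0. Il19 was high in all DKO* libraries, Il20 mainly in GFP libraries, and Il24 was lowest among the DKO* populations in b-KC GFP, at 1.1 to 1.3 FPKM.

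Within a library, FPKM values are scaled per length and can be compared between genes. Il19 made up 89.7% to 97.2% of the summed FPKM of the 3 cytokines in the HF-SC fractions of DKO* mice and 95% to 99.2% in the b-KC fractions. Il24 made up 2.39% to 10.2% in HF-SC and 0.364% to 4.92% in b-KC. Among DKO* libraries Il20 reached its largest share, 2.81%, in HF-SC GFP of mouse 815 and was at 0.0555% to 0.258% in HF-SC Tom.

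The receptor chains differed in level between the cell types of Co mice. Il20ra (chromosome 10, 19432393 to 19479859, plus strand), the chain specific to the type I receptor, was at 36.5, 41.9 and 48.1 FPKM in b-KC Co and at 3.92, 3.9 and 4.32 FPKM in HF-SC Co, a mean 10.4-fold higher in b-KC. In b-KC it was at 7.34, 9.82 and 22 FPKM in GFP and at 19.6, 17.8 and 22 FPKM in Tom, all below every b-KC Co library. In HF-SC it was at 4.87, 5.41 and 6.85 FPKM in GFP and at 6.95, 7.45 and 7 FPKM in Tom, all above every HF-SC Co library. The difference from Co on the log2(FPKM + 1) scale was -1.75 ± 0.26 (GFP) and -1.05 ± 0.26 (Tom) in b-KC, against 0.4 ± 0.26 (GFP) and 0.69 ± 0.26 (Tom) in HF-SC. Cd34 fell in the same HF-SC fractions, by 1.89 ± 0.35 in GFP (limma adjusted p = 0.000587) and 1.35 ± 0.35 in Tom (adjusted p = 0.00575), as did Lhx2 and Lgr5. In HF-SC Tom all 10 endothelial markers were called higher, beside 15.7% of all genes. The part of these bulge and endothelial markers in the HF-SC levels of Il20ra was not tested. The lowest DKO* level in b-KC, 7.34 FPKM, lay within the range of HF-SC Tom. Mouse 817 stood apart in b-KC GFP, and without it the difference there was -2.17.

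Il20rb (chromosome 9, 100358138 to 100387207, minus strand), the chain shared by the type I and type II receptors, was the most abundant chain in every library. It was at 207, 216 and 205 FPKM in b-KC Co and at 55.6, 62.4 and 65.4 FPKM in HF-SC Co, a mean 3.42-fold higher in b-KC. In b-KC of DKO* mice it was at 81, 75.8 and 93.1 FPKM in GFP and at 68.2, 65.2 and 79.7 FPKM in Tom. These levels were lower than every b-KC Co library, with differences of -1.32 ± 0.13 in GFP and -1.55 ± 0.13 in Tom on the log2(FPKM + 1) scale, and reached down to the top of the HF-SC Co range. In HF-SC it was at 57.1, 56.4 and 43.6 FPKM in GFP, overlapping Co, and at 35.3, 42.2 and 43.5 FPKM in Tom, below every Co library. The difference from Co was -0.23 ± 0.13 in HF-SC GFP and -0.59 ± 0.13 in HF-SC Tom.

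Il22ra1 (chromosome 4, 135284087 to 135308055, plus strand), which pairs with IL-20RB in the type II receptor and with IL-10RB in the IL-22 receptor, was the least abundant chain. It was at 2.72, 3.51 and 3.18 FPKM in HF-SC Co and at 1.83, 1.59 and 1.5 FPKM in b-KC Co. It was at 2.49, 3.29 and 2.33 FPKM in HF-SC GFP and at 1.34, 1.68 and 2.5 FPKM in HF-SC Tom. In b-KC it was at 1.68, 1.22 and 0.581 FPKM in GFP and at 2.55, 2.14 and 1.02 FPKM in Tom. The libraries of HF-SC Tom lay below those of HF-SC Co, with a difference of -0.56 ± 0.22 on the log2(FPKM + 1) scale, and the other 3 populations overlapped with their Co groups, with differences of -0.16 ± 0.22 (GFP) in HF-SC, and -0.32 ± 0.22 (GFP) and 0.1 ± 0.22 (Tom) in b-KC. In HF-SC Tom, where Il22ra1 and Il20rb lay below Co, all 10 endothelial markers were called higher and 4 bulge markers lower, and their part in both levels was not tested.

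Il10rb (chromosome 16, 91406409 to 91426074, plus strand), a chain used by several members of the wider family and found on many cell types, was higher in every DKO* library than in every Co library of the same cell type. It was at 15.6, 11.2 and 12.7 FPKM in HF-SC Co, at 25.3, 22.3 and 18 FPKM in HF-SC GFP and at 24.1, 26 and 16.8 FPKM in HF-SC Tom. In b-KC it was at 10.1, 8.88 and 9.24 FPKM in Co, at 27.1, 25.1 and 16.1 FPKM in GFP and at 21.5, 24.7 and 13.4 FPKM in Tom. Mean FPKM was 1.66 and 1.7 times Co in HF-SC GFP and Tom, and 2.41 and 2.11 times Co in b-KC GFP and Tom. The lowest value of each DKO* population came from mouse 817. Leukocytes also use this chain, and the leukocyte marker sums given above rose in the same populations. Their part in the Il10rb levels was not tested.

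**Figure D2:**
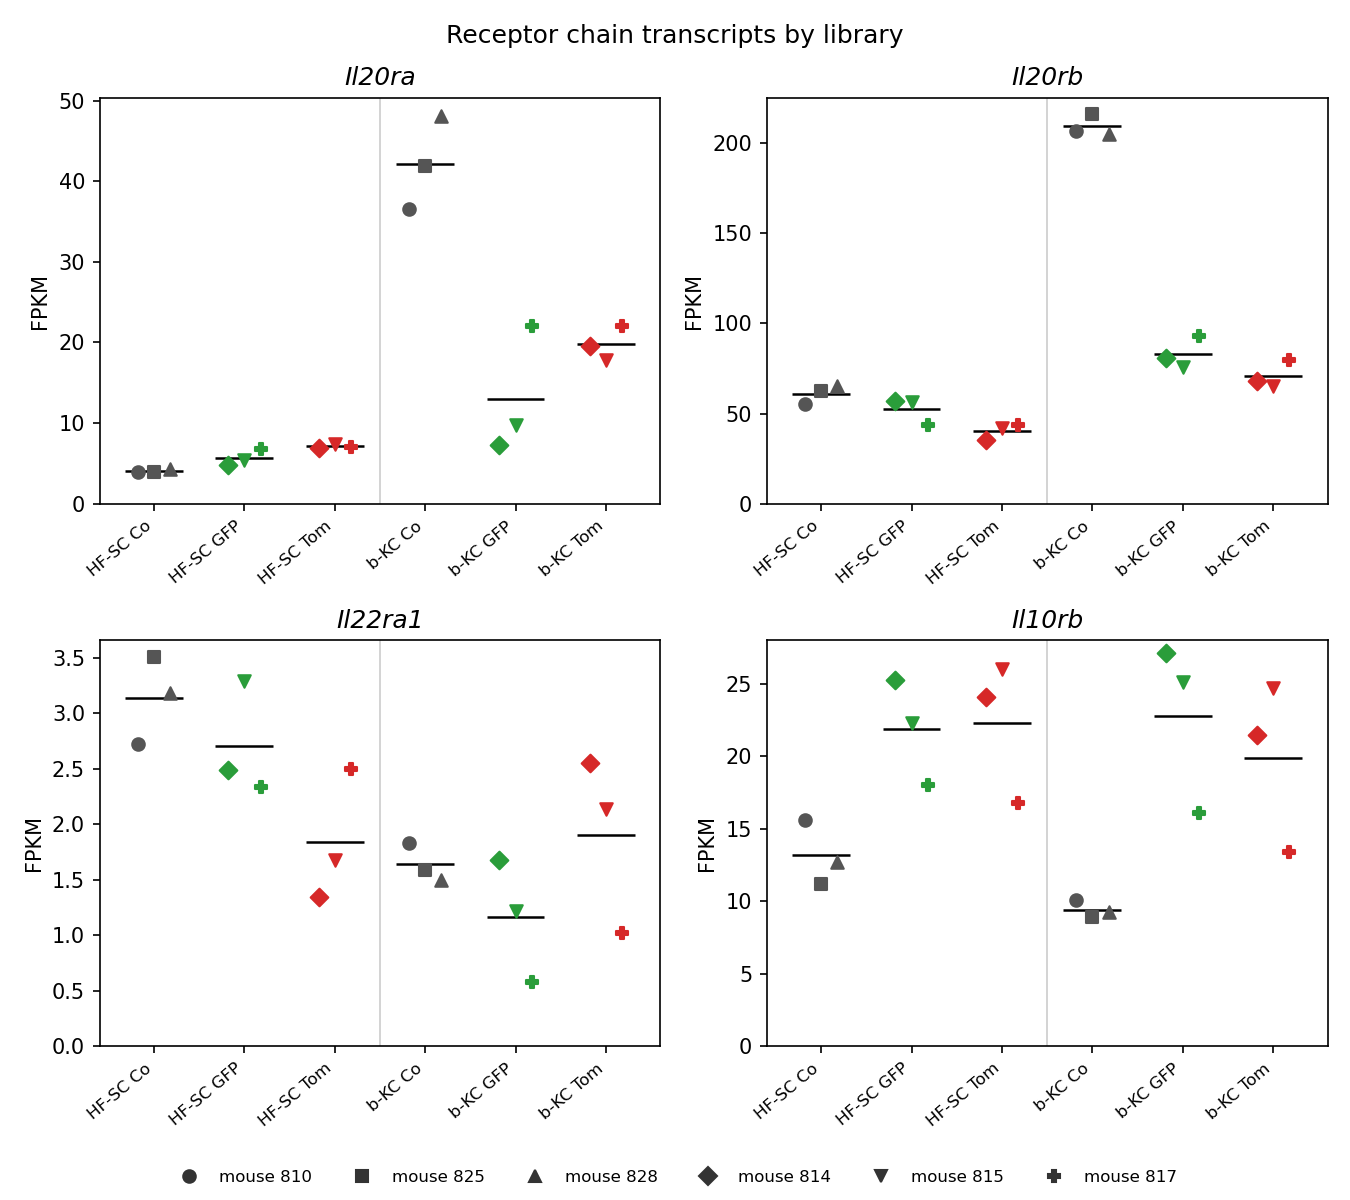
Receptor chain FPKM by library on linear axes from 0, with 1 point per library, symbols for mice and lines for group means. Il20ra and Il20rb were highest in b-KC Co, at 36.5 to 48.1 and 205 to 216 FPKM, while Il10rb was higher in the DKO* libraries of each cell type than in Co.

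The type I chain predominated over the type II chain in b-KC Co, where the ratio of Il20ra to Il22ra1 FPKM was 19.9 to 32.1, against 1.11 to 1.44 in HF-SC Co. In DKO* mice this ratio was 1.65 to 2.94 (GFP) and 2.8 to 5.19 (Tom) in HF-SC, and 4.38 to 37.9 (GFP) and 7.68 to 21.5 (Tom) in b-KC. Mouse 817 gave the highest b-KC ratios, 37.9 and 21.5, and the other 2 mice stayed between 4.38 and 8.34. Il20rb exceeded Il20ra in every library, by 14.2 to 16 times in HF-SC Co and by 4.26 to 5.68 times in b-KC Co.

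Ordered by mean FPKM over the groups, Il19 ran from b-KC GFP (236) through b-KC Tom (232) and HF-SC GFP (210) to HF-SC Tom (177), with overlapping neighbours. Il20 ran from HF-SC GFP (2.56) to b-KC GFP (1.09), which overlapped, and then to b-KC Tom, whose libraries did not overlap with those of b-KC GFP. Il24 ran from HF-SC Tom (11.7) through HF-SC GFP (8.45) and b-KC Tom (6.5), which overlapped, to b-KC GFP (1.19), which overlapped with neither neighbour. For Il20ra the order was b-KC Co (42.1), b-KC Tom (19.8), b-KC GFP (13.1), HF-SC Tom (7.13), HF-SC GFP (5.71) and HF-SC Co (4.05), with overlap only between b-KC Tom and b-KC GFP and between b-KC GFP and HF-SC Tom. For Il20rb, b-KC Co (209) stood clear and HF-SC Tom (40.3) lay lowest, below HF-SC GFP with no overlap. All neighbours overlapped for Il22ra1, and for Il10rb only HF-SC Co (13.2) and b-KC Co (9.42) did not.

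In the limma fit over all 18 libraries, with a call at an adjusted p-value under 0.01, the members called higher than Co in HF-SC GFP were Il19, Il20 and Il24, where 13.0% of the 12751 genes tested were higher and 12.3% lower. In HF-SC Tom, Il19 and Il24 were called higher and Il20rb lower, where 15.7% of genes were higher and 13.9% lower. In b-KC GFP, Il19 and Il10rb were called higher and Il20ra and Il20rb lower, beside 12.5% and 12.0% of genes. In b-KC Tom, Il19, Il24 and Il10rb were called higher and Il20ra and Il20rb lower, beside 15.4% and 15.3% of genes. Because the members were chosen from these values, nothing is read from the counts. Il19, Il20 and Il24 passed the expression filter through DKO* libraries alone, as no Co library reached 1 FPKM. Without mouse 817, 6 members were called in HF-SC Tom in place of 3, and in b-KC Tom 3 were called without mouse 815 or 825 and 2 without mouse 828, in place of 5.

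**Figure D3:**
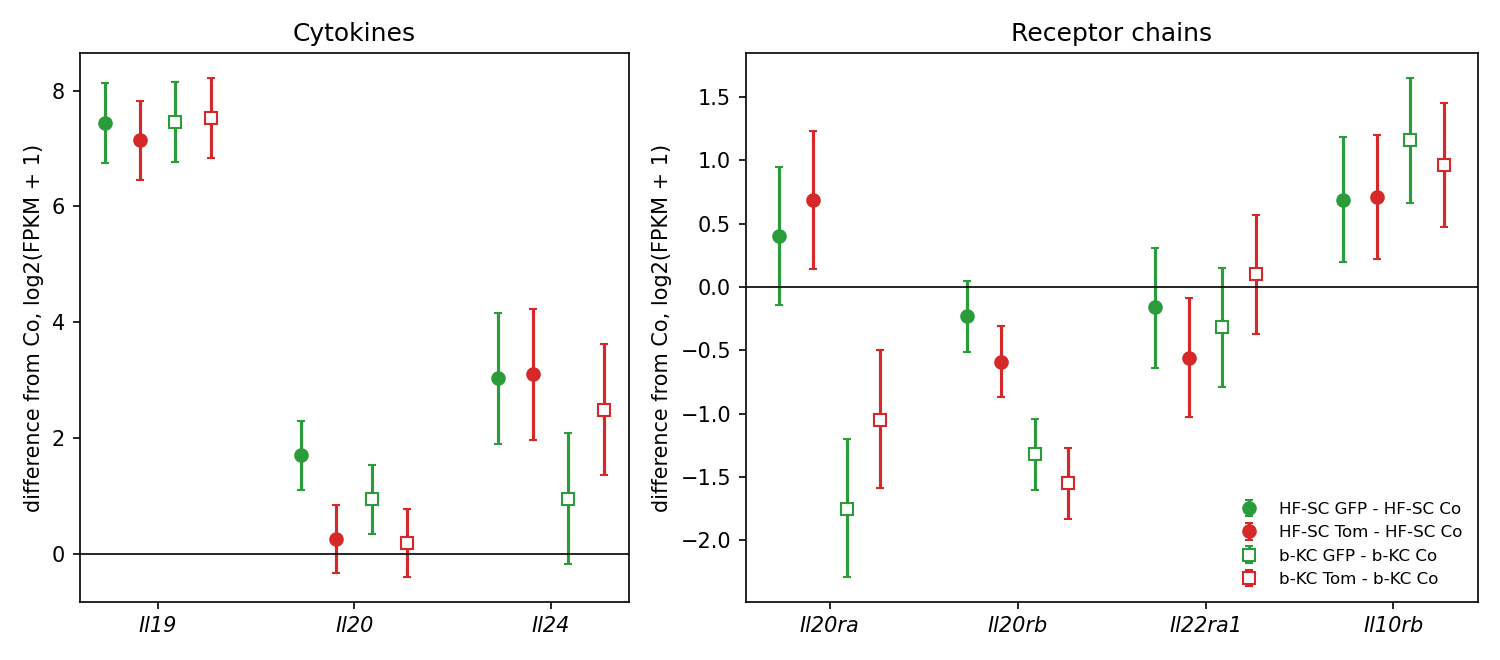
Difference of each DKO* population from the Co group of its cell type on the log2(FPKM + 1) scale, with 95% intervals from the limma fit (filled circles, HF-SC; open squares, b-KC; green, GFP; red, Tom). Il20ra lay above 0 in HF-SC, at 0.4 and 0.69, and below 0 in b-KC, at -1.75 and -1.05.

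GFP and Tom fractions of the same mouse set recombined cells against the non-recombined cells of the same skin. Il20 was higher in GFP than in Tom in every mouse and in both cell types. Its GFP level was 11.5, 17.2 and 8.68 times the Tom level in HF-SC of mice 814, 815 and 817, and 6.7, 7.55 and 1.86 times in b-KC. Il19 was 1.08, 1.53 and 1.13 times the Tom level in HF-SC and 1.35, 1.16 and 0.553 times in b-KC, so mouse 817 went the other way from mice 814 and 815 in b-KC. Il24 in b-KC was higher in Tom, by 2.01, 3.64 and 11.3 times in mice 814, 815 and 817, while in HF-SC the direction differed among the mice. On the log2(FPKM + 1) scale GFP minus Tom was 1.46 ± 0.28 for Il20 in HF-SC and 0.75 ± 0.28 in b-KC, and -1.54 ± 0.53 for Il24 in b-KC.

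Among the receptor chains, Il20ra was lower in GFP than in Tom in every HF-SC pair, at 0.701, 0.726 and 0.978 times, and in b-KC it was at 0.374 and 0.55 times in mice 814 and 815 and equal in mouse 817. Il22ra1 in b-KC was at 0.657, 0.572 and 0.568 times the Tom level, while in HF-SC it was at 1.86, 1.96 and 0.934 times, so the direction there differed among the mice. Il20rb was at 1.19, 1.16 and 1.17 times the Tom level in b-KC and at 1.62, 1.34 and 1 times in HF-SC, and Il10rb stayed between 0.857 and 1.26 times in both cell types. Between the HF-SC fractions 9 of 10 endothelial markers were called lower in GFP, with sums of 1.84 to 30.8 FPKM against 446 to 1480 FPKM in Tom, and their part in the HF-SC ratios was not tested. As a description only, since the members were chosen from these values and Il20 passed the filter through DKO* libraries alone, the call in HF-SC was met by Il20, higher in GFP, where 0.902% of genes were called higher and 4.09% lower. The count was 0 without mouse 814 or 815 and with the mouse as a fixed block, and 2 without mouse 817. In b-KC no member met the call, beside 0.361% of genes higher and 0.125% lower, and 1 did without mouse 817. As above, nothing is read from these counts.

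**Figure D4:**
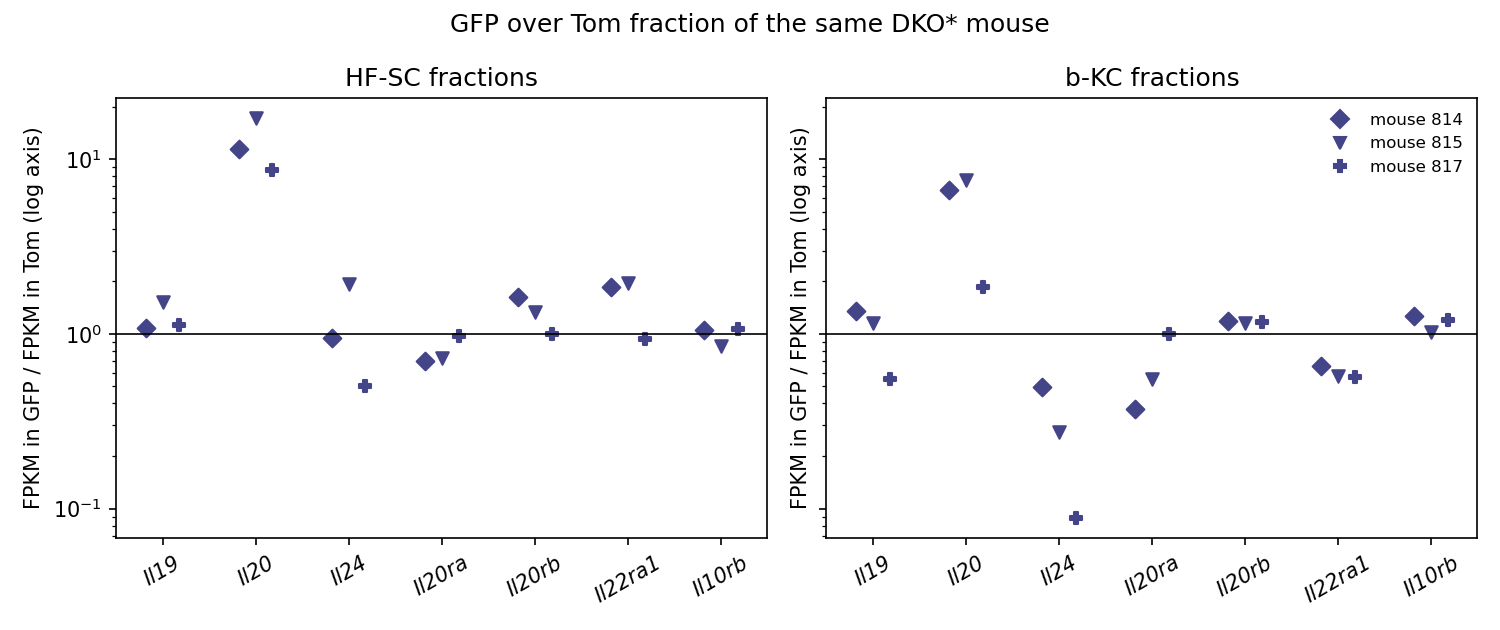
Ratio of FPKM in the GFP fraction to FPKM in the Tom fraction of the same DKO* mouse, on a log axis, for HF-SC (left) and b-KC (right), with 1 point per mouse. Il20 lay above 1 in every mouse and cell type, from 1.86 to 17.2, and Il24 in b-KC lay below 1 in every mouse.

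The change from Co was set against that of the other cell type for the receptor chains Il20ra and Il20rb and for Il19 and Il24. The change to GFP in HF-SC minus that in b-KC was 2.15 ± 0.36 for Il20ra and 1.1 ± 0.19 for Il20rb on the log2(FPKM + 1) scale, and the change to Tom differed by 1.74 ± 0.36 and 0.96 ± 0.19. For Il19 these differences were -0.02 ± 0.46 and -0.39 ± 0.46, with 95% intervals of -1 to 0.95 and -1.37 to 0.59. For Il24 they were 2.07 ± 0.75 and 0.6 ± 0.75. Over all genes tested, 5.21% were called for the change to GFP and 8.05% for the change to Tom, in either direction, and these contrasts share their Co libraries.

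The cytokine genes lie side by side on the minus strand of chromosome 1 within 58.0 kb, with gaps of 19.7 kb between Il24 and Il20 and 21.4 kb between Il20 and Il19. Il10, the founder of the family and an anti-inflammatory cytokine, lies 79.8 kb beyond Il19 on the plus strand and was at 0.0314 to 0.338 FPKM in Co and 0.231 to 0.96 FPKM in DKO* libraries, too low to be tested. Faim3, a receptor for the constant part of IgM, lies 1.3 kb beyond Il24 on the plus strand. It was at 0 to 0.0329 FPKM in Co and 0.0315 to 1.41 FPKM in DKO* libraries, through which alone it passed the filter, and its differences from Co, 0.66 (GFP) and 0.56 (Tom) in HF-SC and 0.79 (GFP) and 0.82 (Tom) in b-KC, are given with no p-value. Mapkapk2, a kinase gene beyond Il10, was at 47 to 79.5 FPKM over all libraries.

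**Figure D5:**
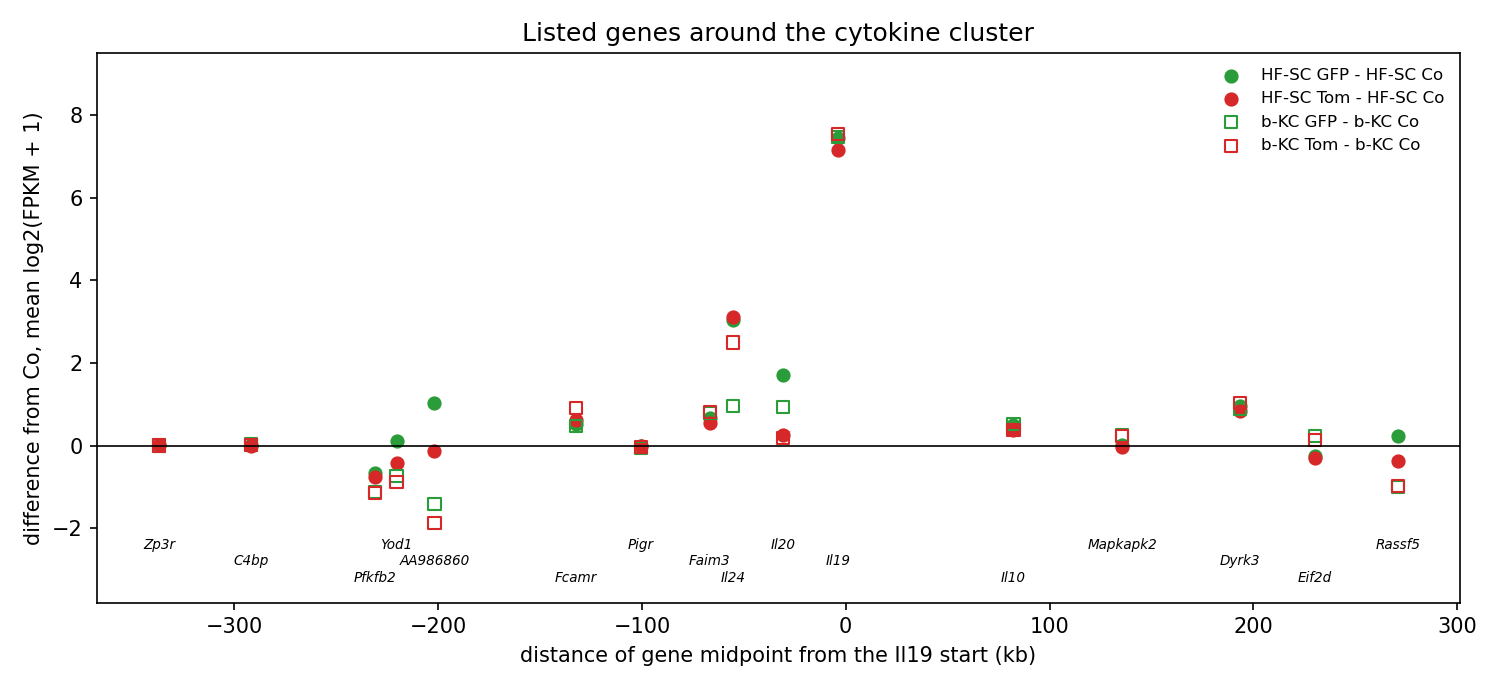
Difference of each DKO* population from Co in mean log2(FPKM + 1) for the 16 genes with values within 300 kb of the cytokine cluster, by distance of the gene midpoint from the Il19 start in kb (names below the points). The differences of Il19 stood near 7 in all 4 populations and those of Il24 lay above 2 in 3 of them, while the genes further out lay on both sides of 0, with AA986860 lower in both b-KC fractions.

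Some genes followed the same pattern across the 18 libraries, given as Pearson's r of log2(FPKM + 1) with no p-value, since libraries of a group and mice shared by groups are not independent points. Il19 was most alike Cyp7b1 (r = 0.985), Tnfaip2, Cmah, S100a9 and Sprr2f (0.974). Il20 was most alike Rhof (0.939), Atp13a4, Slc28a3, the cytokine gene Il1a and Oit1 (0.916). Il24 was most alike Mmp1b, a collagenase (0.945), Sh2d5, Lat2, Lrrc4 and Lrp8 (0.876). Il20ra was most alike Gpt (0.97), Sox6, Rgn, Arl4d and Slc22a4 (0.958). Il20rb was most alike Mycl (0.982), 2310007B03Rik, Ppara, Hsd17b13 and Cyp3a13 (0.967). Il22ra1 was most alike Lysmd4 (0.912), Nck2, Ltbp1, Tyw3 and B3gnt8 (0.845), and Il10rb was most alike Porcn (0.968), Pglyrp1, Sp110, Acot7 and Nucb2 (0.943).

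Genes of the surrounding pathway were taken from lists of 55 genes, of which 46 could be tested. Il1b, Il17c, Defb4 and Cxcl5 had no Co library at 1 FPKM and so passed the filter through DKO* libraries alone, and counts that hold these 4 genes are a description. Over these 46 genes limma called 22 higher and 1 lower for GFP and 23 higher and 1 lower for Tom in HF-SC, and 16 higher and 10 lower for GFP and 12 higher and 10 lower for Tom in b-KC, with median differences of 0.95, 0.79, 0.18 and 0.04 beside -0.05, -0.04, -0.03 and -0.02 over all genes tested. Of all genes, 13.0%, 15.7%, 12.5% and 15.4% were called higher and 12.3%, 13.9%, 12.0% and 15.3% lower in the same order, and the lists were chosen with these values known, so nothing particular to them is read from the counts. The 4 comparisons share Co libraries within a cell type. In b-KC GFP 15 genes were called without mouse 814, 815 or 828, and in b-KC Tom 12 without mouse 815 and 14 without mouse 828. Between GFP and Tom of HF-SC, Il1a was called higher and Socs2 lower, and 14 genes were called without mouse 817. In b-KC 0 were called by limma, with 12 at an unadjusted p-value under 0.05, and 6 without mouse 817.

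Among 8 relatives of the family only Il22ra2 and Ifnlr1 were expressed enough to test. Il22ra2 encodes a soluble receptor that binds and neutralises IL-22, and its gene lies on chromosome 10 next to Il20ra. It rose in HF-SC, from 2, 1.65 and 1.63 FPKM in Co to 7.68, 7.54 and 7.75 FPKM in GFP (log2 difference 1.65 ± 0.19, limma adjusted p = 7.18e-06) and to 5.36, 6.86 and 5.42 FPKM in Tom (1.31 ± 0.19, adjusted p = 4.87e-05). In b-KC it was at 20.4, 14.3 and 13.7 FPKM in Co and at 16.5, 18.8 and 22.1 FPKM in GFP (0.24 ± 0.19, adjusted p = 0.311) and 9.98, 11.7 and 17.8 FPKM in Tom (-0.29 ± 0.19, adjusted p = 0.22), each overlapping Co. The level in Co was 9.17 times higher in b-KC than in HF-SC, and the bulge markers Cd34, Lhx2 and Lgr5 fell in the HF-SC fractions in which Il22ra2 rose. In HF-SC Tom all 10 endothelial markers were called higher, beside 15.7% of all genes. The part of these bulge and endothelial markers was not tested. The change differed from that of HF-SC by 1.41 ± 0.27 for GFP (adjusted p = 0.00297) and 1.6 ± 0.27 for Tom (adjusted p = 0.000748). Il22 itself was at most 0.222 FPKM, about 4 reads, in any library. Ifnlr1, a receptor chain for interferon lambda, fell in b-KC by 0.77 ± 0.2 in GFP (adjusted p = 0.00724) and by 0.75 ± 0.2 in Tom (adjusted p = 0.0073). Both calls were lost without mouse 810, 814, 815, 825 or 828 and without the filter on low values. The GFP call was also lost with only the groups compared in the fit. The limma adjusted p-values ran up to 0.0765 and 0.0621 over the alternatives.

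Of 13 JAK-STAT signalling genes, in HF-SC 2 were called higher and 1 lower for GFP and 5 higher and 1 lower for Tom, and 2 were called higher and 4 lower in both b-KC fractions, with medians of -0.17, 0.32, -0.35 and -0.5. The 2 of 13 called higher in HF-SC GFP and in both b-KC fractions lie near the 13.0%, 12.5% and 15.4% of all genes, and the 4 called lower in b-KC stand beside 12.0% (GFP) and 15.3% (Tom). The 5 called higher in HF-SC Tom stand beside 15.7%, and the 1 called lower in each HF-SC fraction beside 12.3% (GFP) and 13.9% (Tom). Stat3, the main transducer of these receptors, was at 58.5, 75.7 and 65.4 FPKM in HF-SC Co and rose to 138, 158 and 149 FPKM in HF-SC GFP (1.15 ± 0.18, limma adjusted p = 0.000162). It also rose in HF-SC Tom (0.74 ± 0.18, adjusted p = 0.00437) and, among b-KC, in GFP (0.72 ± 0.18, adjusted p = 0.00598), with a difference of 0.56 ± 0.18 in Tom (adjusted p = 0.0212). Socs3, a feedback inhibitor induced by STAT3, did not follow Stat3. In b-KC it fell from 99, 113 and 135 FPKM in Co to 41.5, 38.4 and 52.6 FPKM in GFP (-1.37 ± 0.19, adjusted p = 9.79e-05) and to 50.4, 62.4 and 88.9 FPKM in Tom (-0.8 ± 0.19, adjusted p = 0.00344), and in HF-SC its differences were -0.39 ± 0.19 and -0.08 ± 0.19. Socs1, another inhibitor, rose in b-KC, by 1.3 ± 0.27 in GFP (adjusted p = 0.00168) and 1.19 ± 0.27 in Tom (adjusted p = 0.00232). Socs2, an inhibitor of cytokine and growth hormone signalling, was at 3.27, 5.25 and 4.28 FPKM in HF-SC Co, at 1.27, 1 and 1.08 FPKM in HF-SC GFP and at 31.6, 26 and 5.82 FPKM in HF-SC Tom. It rose in HF-SC Tom (1.8 ± 0.39, adjusted p = 0.00153) and its GFP minus Tom difference in HF-SC was -3.1 ± 0.39 (adjusted p = 4.29e-05). The first call was lost without mouse 810, 814 or 815 and, like the second, with only the groups compared in the fit, and the second also with the mouse as a fixed block, with adjusted p-values over the alternatives of up to 0.0458 and 0.0351.

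Pias3, an inhibitor of STAT3, fell by 0.71 ± 0.17 in HF-SC GFP (limma adjusted p = 0.00336), a call lost without mouse 810, 815, 825 or 828 (up to 0.0203 over the alternatives), and by 1.08 ± 0.17 in b-KC GFP (adjusted p = 0.000213). Cish, a feedback inhibitor of STAT5, fell by 1.36 ± 0.36 in b-KC Tom (adjusted p = 0.00628), a call lost without mouse 810, 815, 825 or 828 and without the filter on low values (up to 0.031). Stat5a rose by 0.57 ± 0.15 in HF-SC GFP (adjusted p = 0.00613) and 0.71 ± 0.15 in HF-SC Tom (adjusted p = 0.00117), and the latter call was lost without mouse 815 and the former without any single mouse but 817, and both with only the groups compared in the fit (up to 0.0211 and 0.0499). Of the kinases, Jak1 rose in HF-SC Tom (0.52 ± 0.14, adjusted p = 0.00562). Endothelial markers were also raised in HF-SC Tom, and their part in the values of Socs2, Stat5a and Jak1 there was not tested. Tyk2 passed the call in no comparison with Co, with differences of -0.58 to -0.17. Leaving out single mice also ended calls of Stat3 in HF-SC Tom (without 810, 815, 817 or 828) and b-KC GFP (without 810, 814, 815, 825 or 828), Socs3 in b-KC Tom (without 814, 815, 825 or 828), Socs1 in either b-KC fraction (without 810, 814, 815 or 828) and Jak1 in HF-SC Tom (without 810, 814, 815, 825 or 828). The highest limma adjusted p-values over the alternatives were 0.0685, 0.041, 0.0361, 0.0241 for GFP, 0.023 for Tom, and 0.0336. With only the groups compared in the fit, calls of Stat3 and Jak1 in HF-SC Tom, Socs3 in b-KC Tom and Socs1 in b-KC GFP were lost too.

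A list of cytokines that induce the subfamily, their receptor chains and the regulator Nfkbiz held 10 tested genes, of which 4 are cytokines (Il1a, Il1b, Tnf and Il17c). The 5 called higher were these 4 and the receptor chain Il1rap in HF-SC GFP, and Il1a, Il1b, Tnf, the receptor chain Il1r1 and Nfkbiz in HF-SC Tom. Among b-KC, Il1a, Tnf, Il17c and the receptor chain Tnfrsf1a were called higher and Nfkbiz lower in GFP, and Nfkbiz alone was called, lower, in Tom. Beside the HF-SC counts stood 13.0% (GFP) and 15.7% (Tom) of all tested genes called higher. For b-KC these shares were 12.5% higher and 12.0% lower (GFP), and 15.4% and 15.3% (Tom). The list was chosen with these values known, and Il1b and Il17c passed the filter through DKO* libraries alone. The counts are therefore a description, and whether these genes induced the subfamily here was not tested. Il1a, an alarmin of keratinocytes, was among the 5 genes most alike Il20. It was at 0.603 to 0.963 FPKM in HF-SC Co, at 78.7, 89.8 and 38.8 FPKM in HF-SC GFP and at 6.12, 5.59 and 6.46 FPKM in HF-SC Tom. Its rise was 5.18 ± 0.36 in HF-SC GFP (limma adjusted p = 8.32e-08) and 2.85 ± 0.36 in b-KC GFP (adjusted p = 4.62e-05), with 1.95 ± 0.36 in HF-SC Tom (adjusted p = 0.000501), and it was higher in GFP than in Tom in HF-SC by 3.23 ± 0.36 (adjusted p = 1.5e-05). Tnf rose by 2.91 ± 0.27 in HF-SC GFP (adjusted p = 1.09e-06), by 2.04 ± 0.27 in HF-SC Tom (adjusted p = 2.63e-05) and by 1.52 ± 0.27 in b-KC GFP (adjusted p = 0.000627). Il17c, an epithelial IL-17 cytokine, was at 0.198, 0 and 0.0749 FPKM in b-KC Co and at 9.35, 8.62 and 0.719 FPKM in b-KC GFP, a difference of 2.35 ± 0.59 given with no p-value because the gene passed the filter through DKO* libraries alone. Its call was lost without any single mouse but 817, without the filter and with only the groups compared. Il1b, made mostly by myeloid cells, passed the filter in the same way. It was at 0, 0.121 and 0.124 FPKM in HF-SC Co, at 3.95, 2.15 and 19 FPKM in HF-SC GFP and at 5.88, 5.05 and 9.94 FPKM in HF-SC Tom, with differences of 2.65 ± 0.45 and 2.83 ± 0.45. The leukocyte marker sum ranged up to 36.9 FPKM in HF-SC GFP and 26.9 FPKM in HF-SC Tom, and its part in the Il1b values was not tested. Nfkbiz, a nuclear regulator of NF-kB targets, rose in HF-SC Tom by 0.84 ± 0.15 (adjusted p = 0.000278) and fell in b-KC Tom by 0.96 ± 0.15 (adjusted p = 0.000104).

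Of 15 genes that IL-20 subfamily cytokines and IL-22 are known to raise in keratinocytes, 12 were called higher for GFP and 11 for Tom in HF-SC and 10 in each b-KC fraction, with median differences of 3.81, 3.23, 3.12 and 3.82. Other cytokines raise many of these genes too. Of all genes tested, 13.0% (GFP) and 15.7% (Tom) were called higher in HF-SC, and 12.5% (GFP) and 15.4% (Tom) in b-KC. The list was chosen with these values known, and Defb4 and Cxcl5 passed the filter through DKO* libraries alone, so the counts are a description. The antimicrobial S100a8 rose in every population, by 10.03 ± 1.06 in GFP (limma adjusted p = 3.48e-06) and 8.97 ± 1.06 in Tom (adjusted p = 8.17e-06) of HF-SC, and by 10.35 ± 1.06 (adjusted p = 6.6e-06) and 10.08 ± 1.06 (adjusted p = 5.18e-06) in those of b-KC. Its partner S100a9 rose by 9.85 ± 0.95 in GFP (adjusted p = 1.33e-06) and 9.1 ± 0.95 in Tom (adjusted p = 2.37e-06) of HF-SC, and by 10.27 ± 0.95 (adjusted p = 2.3e-06) and 9.76 ± 0.95 (adjusted p = 2.43e-06) in those of b-KC. Lcn2, an iron-sequestering antimicrobial protein, was at 0.502 to 1.15 FPKM in HF-SC Co and 288 to 791 FPKM in HF-SC GFP, a rise of 7.98 ± 0.58 (adjusted p = 1.09e-07), and it rose by 7.89 ± 0.58 (adjusted p = 5.17e-07) and 6.28 ± 0.58 (adjusted p = 1.57e-06) in GFP and Tom of b-KC. Krt6b, a keratin of activated epidermis, rose by 6.75 ± 0.76 in HF-SC Tom (adjusted p = 5.09e-06). Mmp3, a matrix protease, went against the list in b-KC GFP, where it fell by 2.92 ± 0.64 (adjusted p = 0.00242), while in HF-SC GFP it rose by 2.85 ± 0.64 (adjusted p = 0.00246). Without mouse 814, 815 or 828, and also without 825 in b-KC or 810 in HF-SC, these Mmp3 calls were lost, with adjusted p-values over the alternatives of up to 0.0191 and 0.0187. S100a8 and S100a9 are also abundant in neutrophils and monocytes, and the part of the leukocyte markers was not tested.

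Of 6 tested differentiation genes that these cytokines are known to lower, in b-KC 3 were called lower for GFP and 4 for Tom, with medians of -1.81 and -2.1, while in HF-SC 2 were called higher for GFP and 1 for Tom, with medians of 0.14 and -0.51. Of all genes tested, 12.0% (GFP) and 15.3% (Tom) were called lower in b-KC, and 13.0% (GFP) and 15.7% (Tom) higher in HF-SC. The list was chosen with these values known, so nothing is read from the counts. Flg2, a filaggrin-like protein of the cornified layer, fell in b-KC by 2.06 ± 0.27 in GFP (limma adjusted p = 6.12e-05) and by 2.29 ± 0.27 in Tom (adjusted p = 1.4e-05). Lor, which encodes loricrin of the cornified envelope, fell by 2.48 ± 0.5 in GFP (adjusted p = 0.00142) and 3.41 ± 0.5 in Tom (adjusted p = 8.06e-05). Krt10, a keratin of suprabasal cells, fell by 1.56 ± 0.35 in b-KC GFP (adjusted p = 0.00297) and by 1.9 ± 0.35 in b-KC Tom (adjusted p = 0.000543). Krt2, a keratin of upper epidermal layers, fell by 4.83 ± 1.23 in b-KC Tom (adjusted p = 0.00489), a call lost without the filter and without mouse 810, 815, 825 or 828 (up to 0.0546). Dsc1, a desmosomal cadherin of differentiating cells, rose by 2.45 ± 0.48 in HF-SC GFP (adjusted p = 0.000946), a call lost without mouse 815 (up to 0.0185). Krt1, the partner of Krt10, rose instead in HF-SC GFP, by 2.84 ± 0.47 (adjusted p = 0.000239), and in HF-SC Tom, by 2.27 ± 0.47 (adjusted p = 0.0012), and differed from Co by 0.04 ± 0.47 in b-KC GFP. In Co, Krt1 was 13.7 times and Dsc1 5.22 times higher in b-KC than in HF-SC, and the part of the 4 bulge markers called lower in each HF-SC fraction in these HF-SC rises was not tested. The calls of Lor in GFP without mouse 828 or with a pseudocount of 0.1, of Krt10 in GFP without mouse 810, 814, 815, 825 or 828 and of Krt1 in HF-SC Tom without mouse 815 were lost, with adjusted p-values over the alternatives of up to 0.0119, 0.0271 and 0.0144.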

How the data were processed

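RNA-seq of 18 libraries was analysed, 3 mice in each of 6 groups taken from the sample labels. Per the submitters' processing notes and the methods, the authors mapped single-end reads of 51 bases with TopHat2 2.0.10 and Bowtie 1.0.0 (build NCBI37/mm9) and deposited FPKM values, normalized for transcript length and library size, made with Cufflinks 2.2.1. The Cufflinks test could not be repeated from FPKM. Libraries were unstranded, so overlapping genes are uncertain. The members and lists were chosen with earlier results of these data known.

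A filter of 1 FPKM or more in 3 or more libraries kept 12751 of 23951 genes, which were fitted with limma 3.58.1 in R 4.3.3 on log2(FPKM + 1), a scale that understates changes of low genes, with 1 mean per group and eBayes with a trend. Benjamini-Hochberg adjustment ran over all genes tested, and calls needed an adjusted p-value under 0.01 in either direction. The fit was first tested on simulated data. Genes named beside the members are Il10, Il22ra2, Stat3, Socs3, Jak1, Tyk2, the 3 largest changes called in each list and comparison, the flanking genes and, for each member, the 5 genes with the most similar pattern. Il22, Mapkapk2, Mmp3, Nfkbiz in HF-SC Tom, Krt1 in b-KC GFP, Krt10 in b-KC Tom, bulge markers and receptor chains among the inducers were added after their values were seen. Depth was implied by FPKM steps of 7744 genes with 1 annotated transcript (NCBIM37), where 79.2% to 83.0% of low values came within 0.1 of whole reads, and 51 bases off the length gave 17040000 to 27150000 reads. Without molecular identifiers, read limits cover counting error only.

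GFP and Tom fractions came from the same mouse by the labels' numbers. Their deviations from the group means correlated at 0.59, 0.08 and 0.43 in HF-SC and 0.24, 0.67 and 0.69 in b-KC for mice 814, 815 and 817, so mouse blocks were tried as alternatives. Others were a pseudocount of 0.1, no filter, other call thresholds, fewer groups in the fit, no trend, rescaled libraries and each mouse left out. Python 3.11.15 with pandas 2.3.3 and matplotlib 3.10.9 made the depth values and plots.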

Additional observations from a re-analysis of the deposited data

Results flagged for a closer look

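Il20ra was flagged because every DKO* library moved one way in HF-SC and the other way in b-KC. Its difference from Co was 0.4 (GFP) and 0.69 (Tom) in HF-SC, against -1.75 (GFP) and -1.05 (Tom) in b-KC. The fitted difference between the cell types, 2.15 ± 0.36 (GFP) and 1.74 ± 0.36 (Tom), is given with no p-value, since the gene was chosen from these values. The bulge markers Cd34 (-1.89 and -1.35), Lhx2 (-1.66 and -2.29) and Lgr5 (-1.68 and -1.93) were lower than Co in GFP and Tom of HF-SC. All 10 endothelial markers were called higher in HF-SC Tom, beside 15.7% of all genes. The part of these bulge and endothelial markers in the Il20ra values was not tested.

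Pathway genes were flagged where limma's interaction term passed the adjusted p-value of 0.01, with values given as the change from Co in HF-SC minus that in b-KC on the log2(FPKM + 1) scale. For the change to GFP these were Mmp3 (5.77), Il1a (2.33), Krt10 (2.2), Flg2 (1.7), Hbegf (1.5), Il1rap (1.41), Il22ra2 (1.41) and Nfkbiz (1.15). For the change to Tom these were Mmp3 (4.03), Cxcl1 (2.65), Socs2 (2.31), Il1r1 (1.85), Nfkbiz (1.8), Flg2 (1.66), Il22ra2 (1.6), Hbegf (1.32), Stat5a (1.15), Jak1 (0.88) and Stat5b (0.83). Summed endothelial markers were 446 to 1480 FPKM in HF-SC Tom and 4.88 to 11.5 in b-KC Tom, and their part in the Tom values was not tested.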

How the results depend on the processing

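No member difference that passed the call changed sign under the alternatives run, while some that did not pass it and lay near 0 did when a mouse was left out, such as Il24 between the HF-SC fractions (0.36 without mouse 817) and Il19 between the b-KC fractions (0.32 without it). Of the member differences, 588 lay within 1 SD of the value reported and 21 beyond it, mostly the cytokines at a pseudocount of 0.1. Of the counts called, 142 lay within 1.5 times the count reported and 30 did not. Requiring an absolute log2 difference of at least 2 left 1 member in b-KC GFP, 2 in b-KC Tom and 0 between the HF-SC fractions, and 14, 11 and 12 pathway genes in b-KC GFP, b-KC Tom and HF-SC Tom. An adjusted p-value under 0.05 gave 5 members in HF-SC Tom, and 35 pathway genes in b-KC Tom, 5 between the HF-SC fractions, with 2 in b-KC. With only the groups compared in the fit, 0 members and 1 pathway gene were called between the HF-SC fractions. The fixed mouse block gave 0 members there, and the random mouse block gave 6 pathway genes there and 2 between the b-KC fractions, and the pairing moved no other count by over 1.5 times.

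With each mouse left out, members called ran from 3 to 4 in HF-SC GFP, 2 to 6 in HF-SC Tom, 3 to 6 in b-KC GFP, 2 to 5 in b-KC Tom, 0 to 2 for GFP against Tom in HF-SC and 0 to 1 in b-KC, and pathway genes from 17 to 29, 16 to 30, 15 to 34, 12 to 33, 2 to 14 and 0 to 6. The highest counts came without mouse 817, shared with mouse 810 for members in b-KC Tom. The cause was not tested. Of the 55 calls of named pathway genes, Il1b and Il17c included, 33 held under all alternatives run, and the others were lost in at least 1. Depth limits Il20 in Tom, where values lie near the worth of 3 reads, and in Co, where 3 HF-SC and 2 b-KC libraries are listed at 0.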
